A study of Mus musculus with 4 samples.

Results

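The genes for 10 transcription factors of the trophoblast were followed in mouse fibroblasts and in 3 pluripotent stem cell lines. They were Cdx2, Eomes, Elf5, Tfap2c, Ets2, Tfap2a, Gata3, Gata2, Ascl2 and Hand1, 10 of the 19938 genes with a probe set of their own on the array. The list is a named set of factors, and every member had 1 probe set that carried its symbol alone. Total RNA was measured on 1-colour Affymetrix arrays with 1 array per cell type or line, 4 in all. The induced pluripotent stem (iPS) lines 178B5 and 492B4 had a mixed genetic background of DBA/2, C57BL/6 and 129S4. The embryonic stem (ES) line v6.5 was an F1 of 129 and C57BL/6. The mouse embryonic fibroblasts (MEF) had the same mixed background as the iPS lines. The 3 pluripotent lines were cultured with 15% serum on mitomycin-C-treated SNL feeder cells that carry a puromycin-resistance gene, and the MEF were cultured with 10% serum, with no feeder layer described. Each iPS line is a single line, and the labels do not say from which cells, by which factors or at which passage it was obtained.

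The trophoblast is the outer lineage of the early embryo, which forms the placenta and is set apart from the cells that give rise to the embryo and to ES cells. Hippo signalling is off in the outer cells, where YAP and TEAD4 switch on Cdx2, and Cdx2, Eomes, Elf5, Tfap2c, Ets2 and Gata3 then act together to establish and keep the trophoblast stem cell state, which depends on FGF4. Ascl2, Hand1, Gata2 and Gata3 act later, in the spongiotrophoblast and the giant cells. In ES cells Pou5f1 holds this programme back, and the Elf5 promoter is known to be methylated there. Several of these factors also work elsewhere, for example Gata2 in blood progenitors, Hand1 in the heart, and Tfap2a in neural crest and limb mesenchyme.

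The values are log2 differences between arrays and not levels. Every probe set of the deposited table has a median of 0 over the arrays, so a value says how far an array lies from the middle of the 4, and whether a gene was above background cannot be read from it. The log base is not stated and was taken as 2. The labels were checked against markers. All 10 pluripotency markers were called higher in the lines, with medians of 6.00, 6.08 and 6.08 log2 above MEF in iPS 178B5, iPS 492B4 and ES. Of 12 fibroblast markers 9 were called lower and 0 higher (3 lower without iPS 178B5), with medians of -4.64, -5.29 and -2.93 log2 on the same arrays. ES lay above both iPS lines in 11 of these 12 markers and in 0 of 10 primitive endoderm markers. Of 9 genes of differentiated trophoblast in the marker list 5 were measured (Tpbpa, Syna, Synb, Ctsq and Plac1). Limma called 0 of them, with 0 at an unadjusted p under 0.05, where 37.8% of all genes lay.

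The sequences before the start sites of Cdx2, Elf5 and Gata3 are shown because Cdx2 and Elf5, placed at the top of the trophoblast network, lay close to MEF in every line, while Gata3 was called lower. Each run gives the 250 bases before the RefSeq start farthest upstream in the table of build GRCm38.p6, 5′ to 3′ on the gene's strand. The regions are chr5:147307250-147307499 on the minus strand for Cdx2, chr2:103411848-103412097 on the plus strand for Elf5 and chr2:9878601-9878850 on the minus strand for Gata3. The annotated Gata3 gene spans chr2:9857078-9887953, so its window lies inside the gene and not at its outermost end. The Gata3 counts below hold for the start taken. Capitals mark the motifs GCCNNNGGC (AP-2), ATGCAAAT (the octamer read by Pou5f1) and GGAATG (TEAD), on either strand.
Cdx2: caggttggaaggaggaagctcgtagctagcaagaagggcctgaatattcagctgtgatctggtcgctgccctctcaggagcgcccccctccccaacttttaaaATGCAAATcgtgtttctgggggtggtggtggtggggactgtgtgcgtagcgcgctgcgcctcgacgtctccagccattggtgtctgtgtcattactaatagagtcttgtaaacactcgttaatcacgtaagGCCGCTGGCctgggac
Elf5: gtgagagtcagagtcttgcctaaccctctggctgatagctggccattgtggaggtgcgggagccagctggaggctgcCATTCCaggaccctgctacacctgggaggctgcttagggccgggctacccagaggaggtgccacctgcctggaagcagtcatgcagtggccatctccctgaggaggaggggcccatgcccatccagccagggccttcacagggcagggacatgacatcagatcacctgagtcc
Gata3: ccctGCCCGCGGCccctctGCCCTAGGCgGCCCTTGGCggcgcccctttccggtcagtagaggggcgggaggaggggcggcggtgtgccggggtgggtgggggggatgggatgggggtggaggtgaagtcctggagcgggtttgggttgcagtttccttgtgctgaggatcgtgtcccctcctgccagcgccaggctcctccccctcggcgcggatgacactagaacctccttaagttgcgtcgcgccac
The Cdx2 window held 1 octamer, which occurs in 1.6% of the 32851 promoter windows of this length, and 1 AP-2 motif, which occurs in 13.7% of them. The Gata3 window held 3 AP-2 motifs that did not overlap one another. The Elf5 window held 1 TEAD motif (12.6% of windows) and 2 CpG dinucleotides, against a median of 6 over all windows, 13 in the Cdx2 window and 19 in the Gata3 window. E-boxes (CANNTG, the motif of Ascl2 and Hand1 with their partners) occur in 66.2% of windows and are not capitalised. There were 4 in the Elf5 window, 1 in the Cdx2 window and 0 in the Gata3 window. For the other families only the exact forms given next were searched, on both strands, and these forms were absent from the 3 windows. Other forms of the same motifs were not searched. The GATA motif was searched as AGATAA, found in 9.99% of all windows, and with another opening letter as TGATAA, found in 7.94%. The ETS motif was searched as CGGAAG, found in 13.6% of windows, and the T-box motif as GGTGTGA, found in 3.33%. Elf5 has a second start, whose window (chr2:103423818-103424067) is not shown. That window held 8 CpG dinucleotides, 1 T-box motif, 1 E-box and 0 TEAD motifs, so the Elf5 counts depend on the start taken. Of the other members Eomes, Tfap2a, Ascl2, Gata2 and Ets2 also had an entry in the table, so 8 of 10 matched. A match describes the letters only.

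The comparison of the 3 lines with MEF asked which trophoblast factors separate pluripotent cells from fibroblasts. The list divided: Tfap2c, Ascl2 and Hand1 rose, Gata2, Gata3 and Tfap2a fell, and Eomes, Ets2, Cdx2 and Elf5 were not called. A gene was called at a Benjamini-Hochberg adjusted p under 0.05 in limma, fitted over all genes, and a difference of at least 1 log2. Thus 3 of 10 members were called higher and 3 lower, where 7.9% of all 19938 genes were called higher and 9.71% lower. The median difference of the members was -0.19 log2, and that of all genes -0.10 log2. Without iPS 178B5 the members called were Tfap2c and Ascl2 alone, so that 0 were lower; without iPS 492B4 and without ES the number lower stayed at 3. The differences themselves changed little without iPS 178B5. Gata2, Gata3 and Tfap2a were at -1.80, -1.72 and -1.69 log2 there, beside -1.86, -1.76 and -1.66 log2 with all lines. A fit with a line left out has fewer residual degrees of freedom, and the share of all genes called in it was not counted. With all lines, the spread came from the 3 lines, with 2 residual degrees of freedom, and the single fibroblast array was taken to vary as the lines do. The labels name no repeat culture of any line, and the p-values therefore cover only the spread between these arrays.

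**Figure D1:**
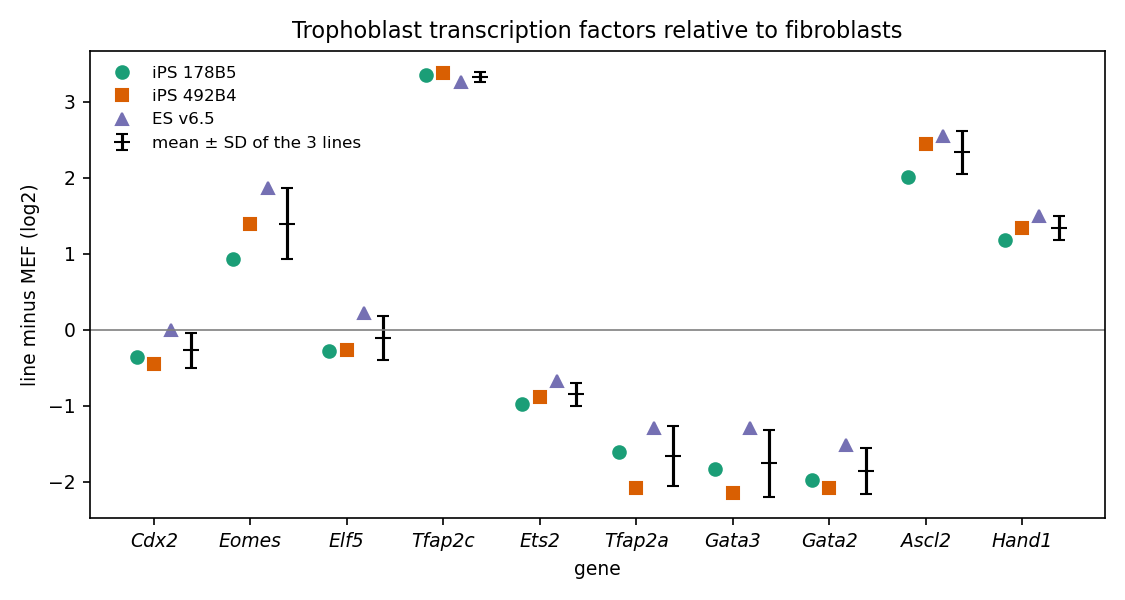
Difference of each line from MEF in log2 (y axis) for the 10 trophoblast transcription factors (x axis), with circles for iPS 178B5, squares for iPS 492B4, triangles for ES v6.5 and black bars for the mean ± SD of the 3 lines. Tfap2c lies between 3.26 and 3.38 log2 above MEF in the lines, and Gata2 between 1.52 and 2.08 log2 below it.

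Tfap2c, the AP-2 factor that trophoblast stem cells need and that is also active in germ cells, had centred values of 0.051 in iPS 178B5, 0.068 in iPS 492B4 and -0.051 in ES, against -3.31 in MEF. The 3 lines lay far above MEF and within 0.12 log2 of each other. The mean difference was 3.33 ± 0.06 log2 (SD, n = 3 lines), a 10.1-fold rise (95% interval of the log2 difference 2.95 to 3.71, adjusted p = 0.00479). It was called under every setting tried, with iPS 178B5 left out too (3.32 log2, adjusted p = 0.0388).

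Ascl2, an imprinted bHLH factor of the ectoplacental cone and spongiotrophoblast, stood at -0.22 in iPS 178B5, 0.22 in iPS 492B4 and 0.31 in ES, against -2.23 in MEF. All lines lay above MEF, and iPS 178B5 was the lowest of them. The rise was 2.34 ± 0.28 log2 (SD, n = 3), or 5.05-fold (adjusted p = 0.00923).

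Hand1, the bHLH factor that drives giant cell formation, stood at -0.077 in iPS 178B5, 0.077 in iPS 492B4 and 0.24 in ES, against -1.26 in MEF. It rose by 1.34 ± 0.16 log2 (SD, n = 3), or 2.53-fold (adjusted p = 0.0134). Without iPS 178B5 it was not called (1.42 log2, adjusted p = 0.0532).

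Eomes, the T-box factor that follows Cdx2 in the trophectoderm and also acts in mesendoderm, stood at -0.23 in iPS 178B5, 0.23 in iPS 492B4 and 0.70 in ES, against -1.16 in MEF. The 3 lines lay above MEF but spread over 0.93 log2. The difference of 1.40 ± 0.47 log2 (SD, n = 3; 95% interval 0.36 to 2.43) did not pass the adjustment (adjusted p = 0.0686). It was called without ES (1.16 log2, adjusted p = 0.0318) and in the fit with iPS and ES as separate groups (1.40 log2, adjusted p = 0.0169). Of 6 markers of the primitive streak, where Eomes is also used, 5 were measured and T was not. Limma called 0 of these 5, with a median of -0.27 log2. At an unadjusted p under 0.05 there was 1 of them, beside 37.8% of all genes. The part of such cells in the difference of Eomes was not tested.

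Among the factors that fell, Gata2, which activates placental lactogen genes in giant cells, stood at -0.23 in iPS 178B5, -0.33 in iPS 492B4 and 0.23 in ES, against 1.75 in MEF. The difference was -1.86 log2 (SD 0.30, n = 3; adjusted p = 0.0155), a 3.63-fold fall. Without iPS 178B5 it was not called (-1.80 log2, adjusted p = 0.0636).

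Gata3, which shares those targets and acts beside Cdx2 in the trophectoderm, stood at -0.27 in iPS 178B5, -0.59 in iPS 492B4 and 0.27 in ES, against 1.56 in MEF. It fell by 1.76 log2 (SD 0.44, n = 3; adjusted p = 0.034), or 3.39-fold. Without iPS 178B5 this call too was lost (-1.72 log2, adjusted p = 0.105).

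Tfap2a, the AP-2 factor best known from neural crest and surface ectoderm, stood at -0.16 in iPS 178B5, -0.63 in iPS 492B4 and 0.16 in ES, against 1.45 in MEF. It fell by 1.66 log2 (SD 0.40, n = 3; adjusted p = 0.0317), or 3.16-fold. Without iPS 178B5 this call was lost (-1.69 log2, adjusted p = 0.097). For all 3 of these genes MEF lay above every line, and ES was the line closest to MEF. Limma called 0 of 6 neural crest and surface ectoderm markers, with a median of -0.04 log2. At an unadjusted p under 0.05 there were 0 of them, beside 37.8% of all genes. The highest of them, Foxd3, lay 1.23 log2 above MEF in iPS 178B5, 0.65 log2 in iPS 492B4 and 2.13 log2 in ES. Over all genes limma called 7.9% higher and 9.71% lower. Of 6 blood and endothelium markers limma called 1 higher (Pecam1, 4.23 log2) and 1 lower (Runx1, -2.53 log2), with a median of 0.26 log2. The part of such cell types in the falls of Tfap2a and Gata2 was not tested. In bulk RNA, fewer cells of a type and less RNA per cell cannot be told apart.

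Ets2, an ETS factor that supports trophoblast stem cell renewal and is widely expressed, stood at -0.20 in iPS 178B5, -0.10 in iPS 492B4 and 0.10 in ES, against 0.78 in MEF. Its difference of -0.85 log2 (SD 0.15, n = 3; adjusted p = 0.0351) passed the p threshold and stayed under the fold minimum. With the arrays centred on 13 reference genes it was called (-1.05 log2, adjusted p = 0.0197).

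Cdx2, the homeobox factor that commits cells to trophectoderm, stood at -0.17 in iPS 178B5, -0.27 in iPS 492B4 and 0.17 in ES, against 0.18 in MEF. The mean difference was -0.27 ± 0.23 log2 (SD, n = 3; 95% interval -0.87 to 0.33, adjusted p = 0.444). The interval leaves out both a rise and a fall of 1 log2 in the lines, if the single MEF array varies as the lines do.

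Elf5, the ETS factor that links Cdx2 and Eomes, stood at -0.15 in iPS 178B5, -0.14 in iPS 492B4 and 0.36 in ES, against 0.14 in MEF. The mean difference was -0.11 ± 0.29 log2 (SD, n = 3; 95% interval -0.81 to 0.59, adjusted p = 0.796). Elf5 had ES above MEF and both iPS lines below it, and among the other members Cdx2 alone did so with equal array medians (0.039 log2 in ES). Since levels cannot be read from the table, values near MEF do not show whether either gene was expressed.

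In the fit with 3 groups, where the spread rests on the gap between the 2 iPS lines (1 residual degree of freedom) and the single ES and MEF arrays were taken to vary alike, the iPS lines and ES were each set against the same MEF array. For iPS against MEF 4 members were called higher, where 9.94% of all genes were, and 3 lower, where 11.2% were. For ES against MEF 4 were called higher, where 9.14% of all genes were, and 3 lower, where 10.9% were. In both, the calls were Tfap2c, Ascl2, Hand1 and Eomes higher and Gata2, Gata3 and Tfap2a lower. Eomes was 1.16 log2 above MEF in iPS (adjusted p = 0.0318; 0.96 log2 and under the fold minimum with reference gene centring) and 1.86 log2 above it in ES (adjusted p = 0.0193). Ets2 was at -0.94 log2 in iPS (adjusted p = 0.0152), and with reference gene centring at -1.14 log2 it was called.

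Setting the iPS lines against ES asked whether these factors separate reprogrammed lines from a line taken from an embryo. No member was called by limma, where 0% of all genes were called. At an unadjusted p under 0.05 there were 4 of 10 members (Elf5, Gata2, Gata3 and Eomes), beside 3079 of all 19938 genes (15.4%). With equal array medians 44 genes in all were called, and with reference gene centring 42, with 0 members among them in either case. By value, ES lay above both iPS lines in 9 of 10 members, where 47.7% of all genes did. The exception was Tfap2c, where iPS minus ES was 0.10 log2 in the 178B5 line and 0.12 log2 in the 492B4 line. The median over the members was -0.41 log2 for iPS 178B5 minus ES and -0.46 log2 for iPS 492B4 minus ES, beside -0.04 and -0.07 log2 over all genes.

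Gata3 was 0.54 log2 lower in iPS 178B5 than in ES and 0.86 log2 lower in iPS 492B4. Its mean difference was -0.70 log2 (95% interval -1.25 to -0.16, adjusted p = 0.264). Eomes was 0.93 log2 lower in iPS 178B5 and 0.47 log2 lower in iPS 492B4 than in ES, with a mean of -0.70 log2 (95% interval -1.37 to -0.024, adjusted p = 0.317). Both iPS lines thus lay below ES for these genes, but neither difference passed the adjustment.

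Tfap2a was 0.32 log2 lower in iPS 178B5 than in ES and 0.79 log2 lower in iPS 492B4 (mean -0.55 log2, adjusted p = 0.391). Gata2 was 0.47 and 0.57 log2 lower in the same lines (mean -0.52 log2, adjusted p = 0.263). Elf5 was 0.51 log2 lower in iPS 178B5 and 0.49 log2 lower in iPS 492B4, with the 2 iPS lines almost level (mean -0.50 log2, 95% interval -0.88 to -0.12, adjusted p = 0.26). Cdx2 was 0.35 and 0.44 log2 lower than ES in iPS 178B5 and iPS 492B4 (mean -0.40 log2, adjusted p = 0.326).

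Ascl2 was 0.53 log2 lower in iPS 178B5 than in ES and 0.094 log2 lower in iPS 492B4 (mean -0.31 log2, adjusted p = 0.567). Hand1 was 0.31 and 0.16 log2 lower in the same lines, and Ets2 0.30 and 0.21 log2 lower. For Tfap2c the 95% interval of iPS minus ES ran from -0.27 to 0.49 log2 (adjusted p = 0.731). A p above the threshold does not show that iPS and ES cells were alike in these genes.

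Other markers moved with this comparison. The fibroblast markers had a median of -1.59 log2 in iPS 178B5 minus ES and -2.10 log2 in iPS 492B4 minus ES, and the primitive endoderm markers had medians of 1.71 and 1.14 log2. The pluripotency markers had medians of -0.12 and -0.01 log2. Gata2, Gata3, Tfap2a and Ets2, which were highest in MEF, and Eomes, Ascl2 and Hand1, which were lowest in MEF, all lay higher in ES than in either iPS line. The part of the fibroblast markers, of the feeder cells or of the strain in these gaps was not tested, and strain and cell type cannot be told apart.

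**Figure D2:**
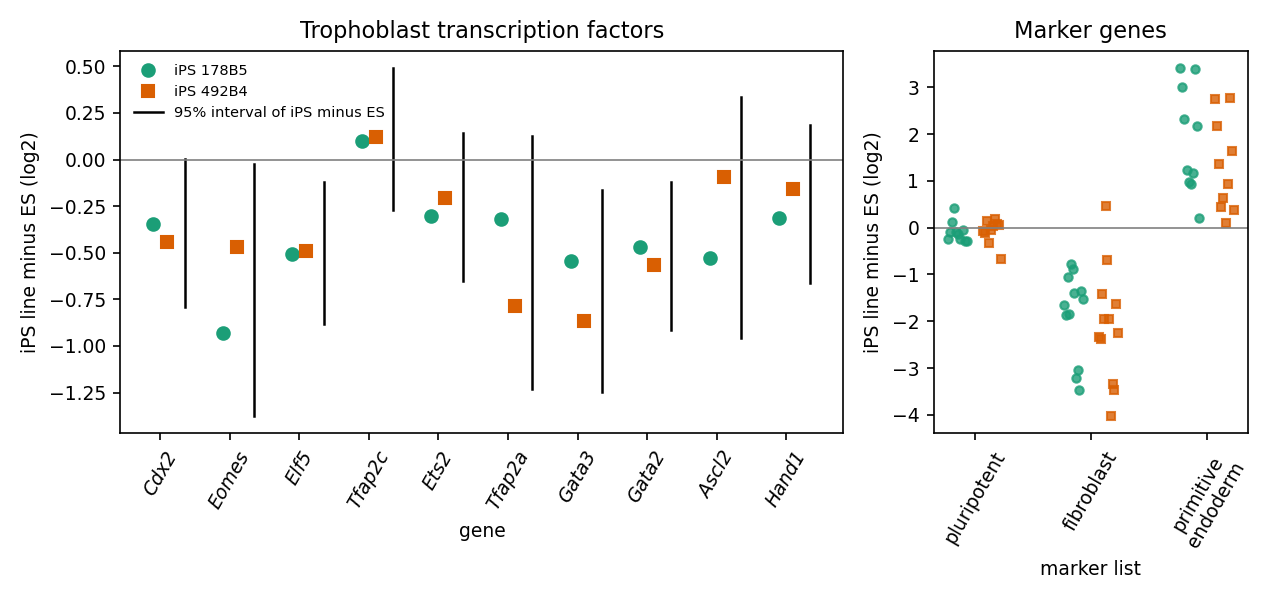
Each iPS line minus ES in log2 (y axes), with circles for iPS 178B5 and squares for iPS 492B4, for the 10 trophoblast factors with the 95% interval of iPS minus ES from limma as black lines (left) and for 3 lists of marker genes (right). All factors except Tfap2c lie below 0 in both lines, and 11 of 12 fibroblast markers lie below 0 in both.

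The 2 iPS lines were compared by value, without a test. Over the members the root mean square difference between them was 0.279 log2, and over all genes 0.276 log2. iPS 492B4 minus iPS 178B5 was 0.46 log2 for Eomes, 0.44 log2 for Ascl2, -0.47 log2 for Tfap2a and -0.32 log2 for Gata3. For the other 6 members it lay between -0.099 log2 (Cdx2) and 0.15 log2 (Hand1), with 0.015 log2 for Elf5 and 0.0175 log2 for Tfap2c. The largest gap among all 3 pluripotent lines was under 1 log2 for each of the 10 members.

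Paralogues of the members did not move as families. In the AP-2 family, Tfap2b, a factor of kidney and neural crest, fell by 1.31 log2 (adjusted p = 0.0489), beside the fall of Tfap2a and the rise of Tfap2c, while Tfap2d (-0.30 log2) and Tfap2e (-0.10 log2) were not called. The call of Tfap2b was lost with equal array medians (-1.24 log2, adjusted p = 0.0536) and when either iPS line was left out, with -1.21 log2 (adjusted p = 0.136) when this was 178B5 and -1.20 log2 (adjusted p = 0.0959) when it was 492B4.

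In the GATA family Gata2 and Gata3 were the 2 of 6 genes called, both lower, beside 9.71% of all genes called lower. Gata4, a primitive endoderm factor, differed from MEF by 3.54 log2 in iPS 178B5, by 2.70 log2 in iPS 492B4 and by 0.53 log2 in ES (adjusted p = 0.259 for the 3 lines). Gata6, which directs cells to primitive endoderm, was 2.58 and 1.92 log2 above MEF in the iPS lines and 0.82 log2 below it in ES. Both were called without ES (3.12 log2, adjusted p = 0.00981, and 2.25 log2, 0.0127), so the count of GATA genes called higher was 2 there and 0 otherwise. Gata2 and Gata3, which were lower in both iPS lines than in ES, thus stood opposite to Gata4 and Gata6 by value.

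None of the 3 CDX genes was called by limma (0 at an unadjusted p under 0.05, beside 37.8% of all genes). Cdx1 was at -0.19 log2 and Cdx4 at -0.01 log2. Of 6 measured HAND and ASCL genes Hand1 and Ascl2 rose, and Hand2, a factor of limb and heart mesenchyme, fell by 1.38 log2 (adjusted p = 0.0184). Over all genes 7.9% were called higher and 9.71% lower. Hand2 was not called without iPS 178B5 (-1.43 log2, adjusted p = 0.0703), which left Ascl2 as the 1 gene of this family called.

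**Figure D3:**
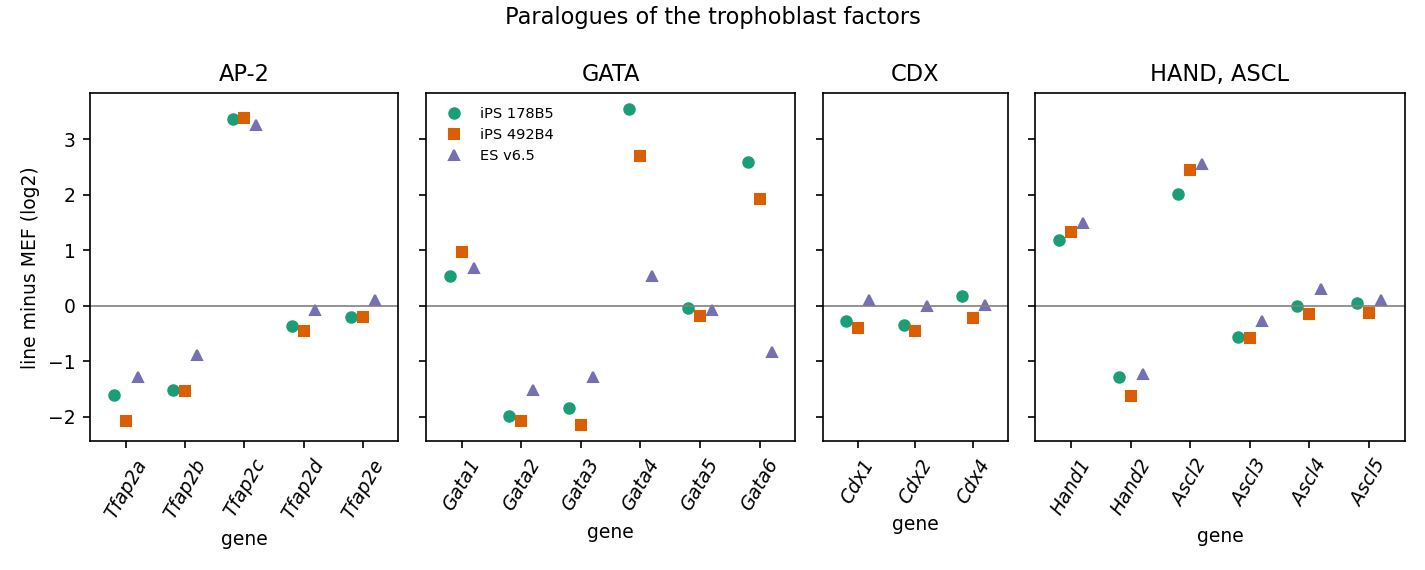
Difference of each line from MEF in log2 (y axis) for the measured members of the AP-2, GATA, CDX, and HAND and ASCL families (x axis), with circles for iPS 178B5, squares for iPS 492B4 and triangles for ES v6.5. Tfap2c lies above MEF and Tfap2a and Tfap2b below it, and Gata4 and Gata6 are higher in the iPS lines than in ES.

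Of 15 measured T-box genes 2 were called higher and 4 lower, beside 7.9% and 9.71% of all genes. The median was -0.08 log2. Tbx15, Tbx5 and Tbx18, factors of limb and body wall mesenchyme, fell by 4.38, 3.53 and 3.26 log2, and Tbx4, the hindlimb factor, by 1.55 log2. Tbx3, a factor of ES cell self-renewal, rose by 1.27 log2 (adjusted p = 0.0424). Its call was lost when either iPS line was left out and with reference gene centring. The number called higher was 0 in each of these settings and 4 without ES.

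Of 25 measured ETS genes 4 were called higher and 6 lower, beside 7.9% and 9.71% of all genes. The median was -0.11 log2. Elf3, an epithelial ETS factor, rose by 3.52 ± 0.13 log2 (SD, n = 3; adjusted p = 0.00479), unlike its relative Elf5, and Etv5, an FGF target, rose by 1.98 log2. Elk3 fell by 2.68 log2 and Erg, an endothelial factor, by 1.93 log2. Without iPS 178B5 the counts were 2 higher and 1 lower, and Elk3 was not called (adjusted p = 0.0954).

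Genes that surround the trophoblast factors in their pathway were then counted. Of 20 measured genes of the Hippo pathway and its TEAD partners 1 was called higher and 10 lower. The shares over all genes were 7.9% and 9.71%. The median of these 20 genes was -1.06 log2, beside -0.10 log2 over all genes. Vgll3, a TEAD cofactor, fell by 3.77 log2, the kinase gene Lats2 by 2.76 log2, Tead3 by 2.06 log2 and Amot, which tethers YAP, by 2.02 log2. Tead4, the TEAD factor that acts upstream of Cdx2, was at 0.98 log2 (adjusted p = 0.0173), just under the fold minimum, and was called with equal array medians (1.05 log2). Yap1 was at -0.57 log2 (adjusted p = 0.129). Without iPS 178B5 the counts were 0 higher and 3 lower, and Vgll3 (adjusted p = 0.0562), Tead3 (0.0608) and Amot (0.0509) were not called. With equal array medians 2 were called higher.

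Of 14 measured genes for trophoblast stem cell signals 3 were called higher and 4 lower, beside 7.9% and 9.71% of all genes. The median was -0.76 log2. Fgf4, the ligand that sustains trophoblast stem cells and is made by the inner cells, rose by 4.73 ± 0.19 log2 (SD, n = 3), while Fgfr2, its receptor in the trophoblast, fell by 2.04 log2 (adjusted p = 0.0233). The Nodal gene rose by 3.19 log2, and Tdgf1, whose product helps Nodal bind its receptors, by 7.22 log2. The number called lower was 2 without iPS 492B4 and 1 without iPS 178B5, where Fgfr2 lost its call (adjusted p = 0.0734).

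Of 17 measured further genes of trophoblast stem cells 6 were called higher and 3 lower, beside 7.9% and 9.71% of all genes. The median was 0.77 log2. The rises were led by Sox2 (6.18 log2), Esrrb (5.10 log2), Zfp42 (4.10 log2) and Plet1 (3.87 log2). Sox2, Esrrb and Zfp42 are also pluripotency genes, and Plet1 is a surface protein of trophoblast progenitors. The number called lower was 0 without iPS 178B5, 5 without ES and 5 with reference gene centring.

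Of 20 measured genes of differentiated trophoblast 2 were called higher and 1 lower, with a median of -0.06 log2, beside 7.9% and 9.71% of all genes. Phlda2 and Peg10, imprinted genes of the placenta that are also expressed outside it, rose by 5.44 and 1.81 log2. Hsd3b6, a steroid enzyme of giant cells, fell by 1.01 log2 (adjusted p = 0.0191). The number lower was 0 with equal array medians, without iPS 178B5 and without iPS 492B4. The prolactin genes Prl3d1, Prl3b1, Prl2c2 and Prl2c3, Gcm1 and Ctsm had no probe set with their symbol alone.

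Of 16 measured genes of trophectoderm epithelium 9 were called higher and 0 lower, beside 7.9% and 9.71% of all genes. The median was 1.31 log2. The E-cadherin gene Cdh1 rose by 5.87 log2, the tight junction genes Cldn6 and Cldn4 by 5.62 and 4.54 log2, and the keratin gene Krt18 by 3.75 log2. These genes are shared with other epithelia and with pluripotent cells.

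Of 18 genes listed as repressors of trophoblast genes in ES cells 13 were called higher and 0 lower, beside 7.9% and 9.71% of all genes. The median was 1.57 log2. The lists overlap: Pou5f1, Nanog and Sox2 are also among the pluripotency markers, as are Fgf4 and Tdgf1 of the signal list. Sox2 was also counted among the further genes of trophoblast stem cells. Pou5f1, the factor that represses Cdx2, rose by 6.30 ± 0.12 log2 (SD, n = 3), Sox2 by 6.18 log2, Nanog by 6.00 log2 and Sall4 by 4.57 log2. Without iPS 178B5 the number called higher was 8.

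**Figure D4:**
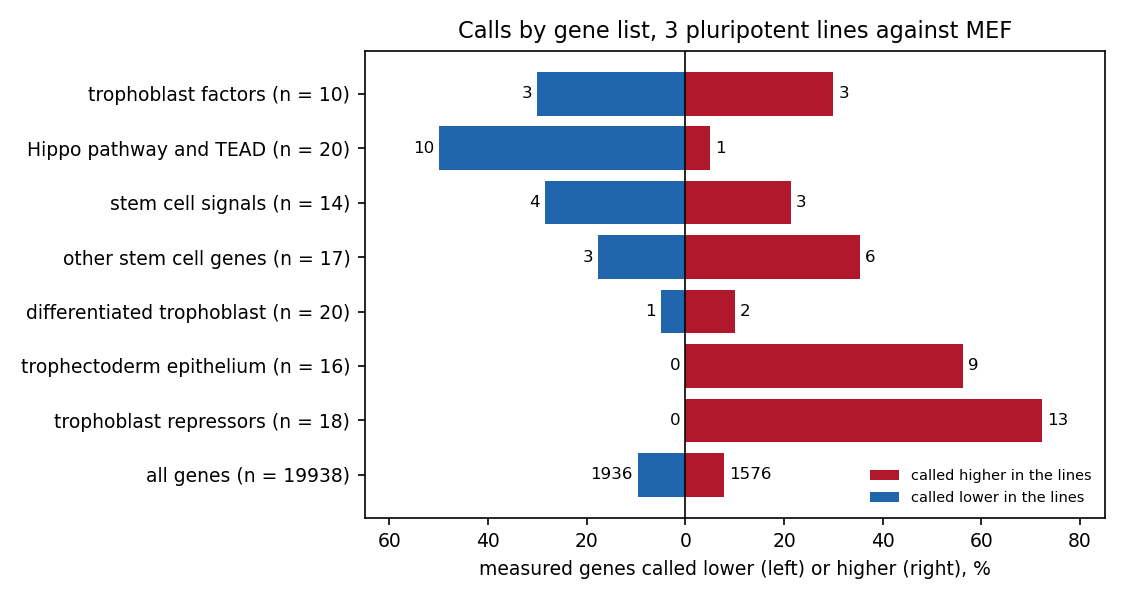
Share of the measured genes of each list, in percent (x axis), called higher (right) or lower (left) in the 3 pluripotent lines than in MEF, with the number of genes printed at each bar. The 18 repressors hold 13 genes called higher, the 20 Hippo and TEAD genes 10 called lower, and the 20 genes of differentiated trophoblast 2 higher and 1 lower.

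The genes with the most similar pattern were taken by the root mean square distance over the 4 arrays. For Tfap2c they were Msh6, a mismatch repair gene, at 0.0377 log2, Grb7 at 0.0756 log2 and Phc1, a Polycomb gene, at 0.0766 log2. For Ascl2 they were Zcwpw1 (0.0178 log2), Map4k1 (0.0511 log2) and Cenpu (0.0868 log2), and for Hand1 Gpr160 (0.0121 log2), Gtf2h4 (0.0124 log2) and Spata5 (0.0177 log2). Among the factors that fell, Gata2 lay nearest to the integrin gene Itgb1 (0.0346 log2), Tnfaip2 (0.037 log2) and Cux1 (0.0382 log2). Gata3 lay nearest to Rgma (0.0233 log2), Peak1 (0.0478 log2) and Eno3 (0.0582 log2), and Tfap2a to Mgat2 (0.0362 log2), Tspyl4 (0.0468 log2) and Galnt10 (0.0487 log2). With 4 arrays such likeness is a description of these arrays.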

How the data were processed

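The authors deposited 1 table of log2 values for 28853 probe sets on 4 arrays. GCRMA, which adjusts for background, normalizes the arrays and summarises probes, was used per the submitters' processing notes (no version is named in them). The deposited log2 values were centred to a median of 0 for each probe set (within 5e-07); no label states this step or the log base.

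The platform annotation gave 1 gene symbol to 21789 probe sets, several to 1621 and none to 5443; those with 1 were averaged per gene to 19938 genes. limma 3.58.1 (R 4.3.3) fitted linear models with moderated variances (eBayes), checked on simulated data. Its p-values were adjusted over the whole table by Benjamini-Hochberg. All 4 arrays were used, in 2 groups (3 lines, MEF) or in 3 (iPS, ES, MEF). Alternatives were equal array medians, centring on 13 reference genes, the widest probe set per gene, robust moderation, no fold minimum and leaving out each line. The counts per gene list under them were added after seeing the data.

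The members and lists were chosen with earlier results of these data known. Named were all members, up to 4 called genes per list, paralogues and the 3 nearest genes of each called member; Tead4 and Yap1 were named for their place in the pathway. No filter on dim probes could be set, and the number of arrays limits the precision.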

Additional observations from a re-analysis of the deposited data

Results flagged for a closer look

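Elf5 was singled out because both iPS lines lay below MEF (-0.29 log2 in 178B5, -0.27 log2 in 492B4) while ES lay above it (0.22 log2). The difference of iPS minus ES was -0.50 log2, and in limma it did not pass the adjustment (adjusted p = 0.26). With 1 array for ES and 1 for MEF, the opposite signs rest on single arrays and were not tested themselves.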

How the results depend on the processing

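When a line was left out, the number of members called higher against MEF ranged from 2 (without iPS 178B5) to 4 (without ES, with Eomes added), and the number called lower from 0 (without iPS 178B5) to 3. Against ES, 0 members were called under every alternative with a test. Cdx2 in ES against MEF, at -0.0071 log2, turned to 0.039 log2 with equal array medians (adjusted p = 0.91). Cdx4 in the lines against MEF, at -0.01 log2, turned to 0.061 log2 there and ranged from -0.11 to 0.093 log2 when a line was left out; the cause was not tested. Of 250 member values with a test under an alternative, 238 kept their direction and stayed called or not called. With 1 iPS line left out, iPS against MEF and iPS against ES had values only; Eomes in iPS 178B5 alone was 0.93 log2 above MEF, under the fold minimum. Reference gene centring moved the median of all genes from -0.10 to -0.30 log2 for the lines against MEF, and the split of calls from 1576 higher and 1936 lower to 1202 and 2555. For iPS against MEF the split of 1981 and 2235 became 1531 and 2866, and 2265 and 2022 with equal array medians; for ES against MEF 1823 and 2167 became 1428 and 2831. The shares of all genes called with a line left out were not counted. No paired analysis was possible, since each line and MEF had 1 array.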
